A study of Mus musculus with 2 samples.

Results

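Runx2, Dlx5, Dlx6, Msx1, Msx2, Twist1, Twist2, Alpl, Clec11a and Spon1 were followed across the mesenchyme of the mouse aorta-gonad-mesonephros region (AGM), the tissue around the dorsal aorta where definitive hematopoietic cells first arise. These 10 genes were chosen by name from the 31053 genes counted, 7 as transcription factors of skeletal and limb mesenchyme and 3 as genes of osteogenic cells or of the matrix. AGMs were taken at E11, at 42 somite pairs, from WT (PDGFRB +/+) embryos and from KO (PDGFRB -/-) embryos that carry a null allele in all cells, on a C57BL/6J background. Each genotype gave 1 library of 10x Chromium 3′ single-cell RNA sequencing, loaded for 7000 cells and with no sort, so no test between genotypes was possible. Intervals in parentheses are 95% intervals of counting error only and leave out the spread between cells and between embryos. Levels are CPM, the UMIs (unique molecules) of a gene scaled to the summed UMIs of a population, and ratios are log2 of KO over WT.

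RUNX2 is the runt-domain factor that commits mesenchymal cells to the osteoblast lineage, with CBFB as its partner. DLX5, DLX6, MSX1 and MSX2 are homeodomain proteins downstream of BMP signals in limb bud, branchial arch and body wall mesenchyme, where MSX proteins act mostly as repressors and DLX proteins mostly as activators. TWIST1 and TWIST2 are basic helix-loop-helix factors of undifferentiated mesenchyme, and TWIST proteins hold RUNX2 in check before osteoblasts form. Alpl encodes tissue-nonspecific alkaline phosphatase, an early osteoblast enzyme that is also a classic marker of primordial germ cells, Clec11a encodes the osteogenic growth factor osteolectin, and Spon1 encodes the matrix protein F-spondin.

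The promoters of Runx2, Msx1 and Msx2, genes whose levels differed between the libraries, are shown first. Promoters of Dlx5, Dlx6 and Spon1, which differed as well, are not shown here. Each line gives the 250 bases before the RefSeq start of the gene (GRCm38.p6, 5′ to 3′ on the strand of the gene), and capitals mark matches on either strand to TGTGGT (the RUNX core), TAATTA (a homeodomain core), CCAAT or GGGCGG (the GC box).
Runx2: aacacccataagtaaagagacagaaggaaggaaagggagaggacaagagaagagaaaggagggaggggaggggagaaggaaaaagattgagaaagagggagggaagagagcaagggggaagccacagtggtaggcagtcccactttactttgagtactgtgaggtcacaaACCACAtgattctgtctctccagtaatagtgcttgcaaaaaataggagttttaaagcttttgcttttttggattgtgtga
Msx1: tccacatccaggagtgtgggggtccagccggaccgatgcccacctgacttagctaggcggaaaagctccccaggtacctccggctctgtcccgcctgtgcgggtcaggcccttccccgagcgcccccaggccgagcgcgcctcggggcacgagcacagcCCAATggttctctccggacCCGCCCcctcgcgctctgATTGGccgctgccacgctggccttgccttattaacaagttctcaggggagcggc
Msx2: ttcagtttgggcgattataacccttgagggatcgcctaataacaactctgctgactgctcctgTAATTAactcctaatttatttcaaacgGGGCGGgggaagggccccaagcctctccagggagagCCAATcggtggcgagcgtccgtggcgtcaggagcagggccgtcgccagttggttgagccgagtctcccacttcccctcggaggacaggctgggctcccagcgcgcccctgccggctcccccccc
The Runx2 window lies at chr17:44814628-44814877 on the minus strand, and its single match, ACCACA, is the RUNX core read on the other strand. It starts 80 bases before the RefSeq start. Msx1 (chr5:37824586-37824835, minus strand) held CCAAT at 91 bases and, on the other strand, at 54 bases before the gene, around a GC box at 72 bases. Msx2 (chr13:53472781-53473030, minus strand) held TAATTA at 187 bases, a GC box at 160 bases and CCAAT at 124 bases. The GENCODE annotation, used below for Dlx5 and Dlx6, has other starts for 2 of these genes. Its Msx2 (chr13:53466884-53473074) spans the whole Msx2 window, and its Runx2 (chr17:44495987-44814797) covers the part of the Runx2 window with the match. Among the 32851 windows of this length in the RefSeq table, 14% held the RUNX core, 4.8% TAATTA, 33.8% CCAAT and 32.7% the GC box. G and C made up 44.8% of the Runx2 window, 68.0% of that of Msx1 and 61.6% of that of Msx2, beside a median of 52.4% over all windows. A match is a run of letters and was not tested as a binding site.

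The deposited counts held 179743201 UMIs in WT and 174597654 in KO. Barcodes with 2000 or more UMIs, under 10% of them mitochondrial, were used as cells, 8253 in WT (median 13321 UMIs) and 8165 in KO (median 12391 UMIs). They shared 20 barcodes, 0.242% of the WT and 0.245% of the KO cells. The targeted gene, Pdgfrb, was at 43.1 CPM in WT and at 7.09 CPM in KO, not at 0. The study took KO cells with detected PDGFRβ out before its comparisons, whereas the main values here keep them. Xist was at 793 CPM in WT and at 0.41 CPM in KO, whereas the Y-linked gene Ddx3y was at 0.01 CPM in WT and at 56.7 CPM in KO, so genotype, library and sex cannot be told apart. The tissue in the libraries differed as well. Barx1, a marker of stomach and spleen mesenchyme, was at 35.1 CPM in WT and at 0.72 CPM in KO. The limb genes Pitx1 (61.2 and 29.1 CPM) and Tbx5 (8.71 and 9.53 CPM) were detected in both. Pitx1 was also among the leading genes of the WT splanchnic-like class described below, so it does not mark limb cells alone.

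Cells were assigned to classes by gates of marker genes that include none of the 10 genes. Mesenchymal cells, 5367 in WT (65.0% of cells) and 5786 in KO (70.9%), fell into sclerotome-like (1147 and 1845 cells), smooth muscle- or mural-like (354 and 217), splanchnic-like (595 and 384) and remaining (1882 and 1838) cells, and into a class gated by Prrx1, Prrx2 and related genes (1389 and 1502). The last gate was built for body wall, but genes of the limb bud such as Hoxd13 and Tbx5 were among its leading genes, so it is called the Prrx1/Prrx2 class. Barx1 is among the markers of the splanchnic-like gate. It led that class in WT and was not among its leading genes in KO, so ratios of the splanchnic-like class can compare unlike cells. In the remaining class, Dcn and Shisa3 led in both libraries, with Lum, Col1a1 and Tlx1 in WT and Cxcl13, Ebf2 and Wt1 in KO. Levels were read in 12 classes that held 50 or more cells in each library. The erythroid class, which should lack the 10 genes, gave the background. It held 29.2 CPM of Twist1 in WT and 9.77 CPM in KO, at most 4.81 CPM of Twist2, at most 3.53 CPM of Msx1, and under 1 CPM of each of the other genes.

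**Figure D1:**
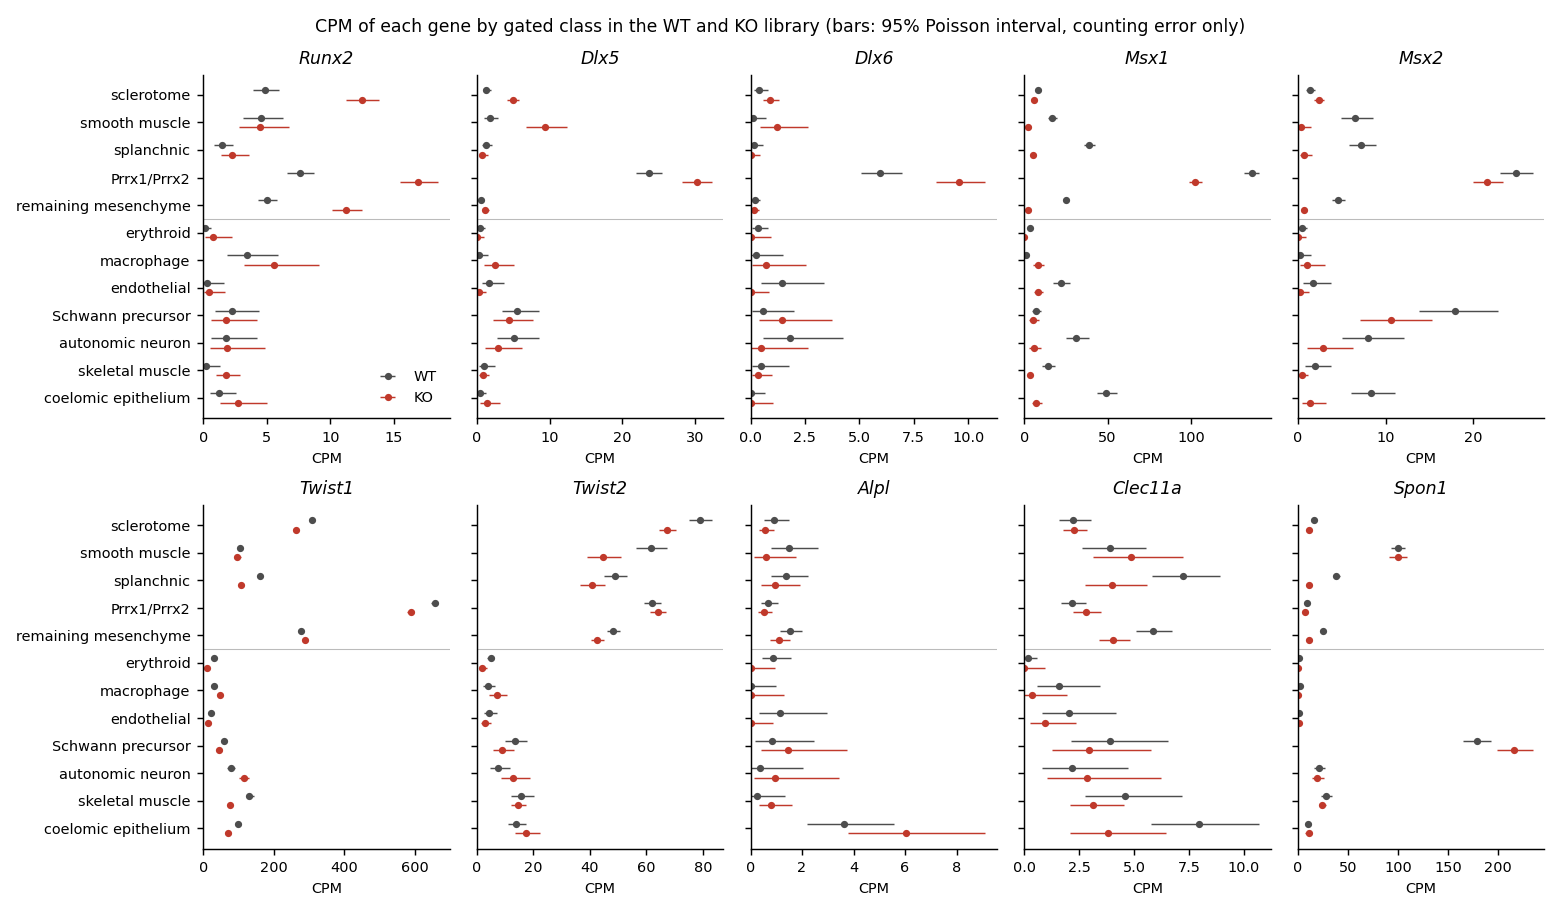
Level of each of the 10 genes in CPM (linear axes that start at 0 and differ between genes) in 12 gated classes of the WT and KO libraries; points are UMIs summed over a class and bars are 95% Poisson intervals of counting error. Among these 12 classes, Runx2, Dlx5, Dlx6, Msx1, Msx2 and Twist1 are highest in the Prrx1/Prrx2 class in both libraries. Twist2 is highest in the sclerotome-like class (78.9 CPM in WT) and Spon1 in the Schwann precursor-like class (179 CPM in WT). Smaller classes are not shown.

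Runx2 was higher in KO. Over all cells it was at 3.98 CPM in WT (3.66 to 4.31, 597 UMIs) and at 9.73 CPM in KO (9.23 to 10.3, 1384 UMIs), a log2 ratio of 1.29 (1.15 to 1.43), or 2.45-fold. Within the mesenchymal classes it was at 5.23 and 12.2 CPM, a log2 ratio of 1.22 (1.07 to 1.37). Among the 12 classes, the Prrx1/Prrx2 class held the highest level in both libraries, 7.62 CPM in WT (6.63 to 8.72) and 16.9 CPM in KO (15.5 to 18.5). The sclerotome-like class was at 4.84 CPM in WT and at 12.5 CPM in KO, and the remaining class at 5.02 and 11.2 CPM. In these 3 classes the log2 ratio was 1.15 (0.92 to 1.39), 1.37 (1.03 to 1.72) and 1.16 (0.90 to 1.43). Smooth muscle-like cells held 4.52 CPM (36 UMIs) and 4.45 CPM (22 UMIs), a log2 ratio of -0.02 (-0.86 to 0.78), and splanchnic-like cells 1.46 and 2.30 CPM, so a difference was seen in the sclerotome-like, Prrx1/Prrx2 and remaining cells and was not detectable at this depth in the other mesenchymal classes. In WT, the remaining, sclerotome-like and smooth muscle-like classes did not differ in Runx2 beyond their intervals.

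More cells carried Runx2 in KO, and some carried more of it. Of the mesenchymal cells, 7.29% in WT and 12.9% in KO held a Runx2 UMI (medians of 13450 and 12706 UMIs). The erythroid cells, with medians of 16506 and 19249 UMIs, had one in 0.28% and 1.55%. With each cell thinned to 2000 UMIs, the mesenchymal shares were 1.04% and 1.99% and the erythroid shares 0 of 708 and 0 of 194 cells. The highest count in a mesenchymal cell was 9 UMIs in WT and 16 in KO. The nephrogenic class of KO held 40 Runx2 UMIs, 25.8 CPM, but they came from 5 cells, 1 of them with 20 UMIs, against 2 UMIs in WT. In barcodes with 100 or fewer UMIs, which hold free RNA, Runx2 was at 5.64 CPM in WT (3.08 to 9.46, 14 UMIs) and at 9.75 CPM in KO (6.18 to 14.6, 23 UMIs), with intervals that overlap. Mesenchymal cells with 2 or more UMIs of the platelet genes Pf4, Ppbp and Itga2b, genes chosen after the values were seen, held 4.67 CPM in WT (33 cells) and 20.1 CPM in KO (55 cells). These cells carried 1.17% of the Runx2 UMIs of WT and 3.18% of those of KO. Runx2 was also read by limb genes within the Prrx1/Prrx2 class. In Prrx1/Prrx2 cells with 2 or more UMIs of the hindlimb genes Tbx4 and Pitx1 and none of the forelimb gene Tbx5, again chosen after the values were seen, Runx2 was at 6.92 CPM in WT (32 UMIs, 206 cells) and at 34.7 CPM in KO (126 UMIs, 152 cells), a log2 ratio of 2.32 (1.76 to 2.93). With Tbx5 and without the hindlimb genes, 16 WT cells held 0 Runx2 UMIs and 32 KO cells held 23, or 29.4 CPM. Those WT cells summed to only 439572 UMIs, so their 0 is not read as a level.

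Over the 24 class and library points, the gene with the pattern most like that of Runx2 was Runx2os1, an antisense RNA of the same locus (Pearson r = 0.85 of log2(CPM + 1)), followed by Vcam1 (r = 0.82), a cell adhesion gene, and Gm26909 (r = 0.80). Here and below such an r is a description over classes that share 2 libraries. Reads of this chemistry keep their strand, and Runx2os1 was at 1.31 CPM in WT and at 2.56 CPM in KO mesenchyme, a log2 ratio of 0.97 (0.66 to 1.28). The other RUNX genes stood beside it. Runx1, the hematopoietic RUNX factor, was at 9.92 and 14.5 CPM in the mesenchymal classes (0.55, 0.44 to 0.67) and Runx3 at 0.59 and 1.10 CPM (0.91, 0.44 to 1.38), while the shared partner Cbfb was at 46.9 and 46.6 CPM and the corepressor gene Runx1t1 at 109 CPM in each. Of the 11 RUNX partners and DLX and MSX paralogs, 7 had 50 or more UMIs there. None was lower by 1.5-fold and 2, Runx2os1 and Runx3, were higher, where 5.47% of all 14836 genes compared were higher in KO by that much. Their median log2 ratio was 0.55, beside 0.02 over all genes.

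Dlx5 and Dlx6 lie 9236 bases apart on chromosome 6, Dlx6 at chr6:6863334-6868568 on the plus strand and Dlx5 at chr6:6877805-6882085 on the minus strand (GRCm38, GENCODE M21). Both were concentrated in the Prrx1/Prrx2 class, which held 77.8% of the Dlx5 UMIs of WT and 73.3% of those of KO. There Dlx5 was at 23.7 CPM in WT (21.9 to 25.5) and at 30.3 CPM in KO (28.3 to 32.3), and Dlx6 at 5.96 CPM (5.09 to 6.94) and 9.59 CPM (8.50 to 10.8). No other of the 12 classes reached 10 CPM of Dlx5 in either library. The small epithelium class, not among them, held Dlx5 at 18.5 CPM in WT (12 UMIs) and 23.4 CPM in KO (9 UMIs). Its Dlx6 was at 3.08 CPM in WT (2 UMIs) and 15.6 CPM in KO (6 UMIs). Dlx5 was also present in KO smooth muscle-like cells, at 9.31 CPM (46 UMIs in 16 cells) against 1.76 CPM in WT (14 UMIs), and in KO sclerotome-like cells, at 4.97 CPM (147 UMIs) against 1.30 CPM (24 UMIs). The log2 ratios were 2.41 (1.52 to 3.38) and 1.93 (1.30 to 2.62). Over all cells the ratio of Dlx5 was 0.59 (0.47 to 0.72), at the edge of 1.5-fold, and that of Dlx6 was 0.77 (0.52 to 1.02). Neither was past 1.5-fold when cells were thinned to 2000 UMIs (0.46 and 0.20) or when the KO cells with a Pdgfrb UMI were left out of KO alone (0.22 and 0.35).

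Cells with limb markers carried most of both genes. Among Prrx1/Prrx2 cells, those with 2 or more UMIs of Tbx4, Tbx5, Pitx1 and Hoxd13 (635 in WT, 546 in KO), a split chosen after the values were seen, held Dlx5 at 40.9 CPM in WT and at 57.3 CPM in KO. Cells with none of these UMIs (603 and 791) held 0.74 and 2.31 CPM. Dlx6 followed the same order, with 10.2 and 18.2 CPM against 0.21 and 0.32 CPM. A cell could pass this split on any of these genes alone, Pitx1 or Hoxd13 included. The name limb-marked therefore stands for these UMIs and not for a tissue shown for each cell. Within the limb-marked cells the KO over WT log2 ratio was 0.49 (0.33 to 0.64) for Dlx5 and 0.83 (0.54 to 1.13) for Dlx6, the latter past 1.5-fold. The genes most like Dlx5 over the classes were Crym (r = 0.80), Gsc (r = 0.74), a homeobox gene of the embryo, and Apcdd1 (r = 0.74), a WNT inhibitor. Those most like Dlx6 were Tbx3os2 (r = 0.81), Htra4 (r = 0.79) and Tac1 (r = 0.78), and Dlx5 and Dlx6 had an r of 0.90 with each other.

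Msx1 and Msx2 were lower in KO in smooth muscle-like, splanchnic-like, remaining and coelomic epithelium-like cells. Msx1 was also lower in KO autonomic neuron (86 and 12 UMIs, log2 ratio -2.45), skeletal muscle (59 and 29 UMIs, -2.14) and endothelial (76 and 35 UMIs, -1.43) cells. The erythroid background held 44 Msx1 UMIs in WT and 0 in KO. Not every class went this way. Msx2 was higher in KO sclerotome-like cells (25 and 70 UMIs, log2 ratio 0.80, 0.12 to 1.52) and in the small epithelium class (31 and 55 UMIs, 1.58, 0.92 to 2.27). Msx1 was higher in the KO macrophage gate (4 and 23 UMIs) and in the small nephrogenic (5 and 23 UMIs) and epithelium (15 and 71 UMIs) classes. The epithelium class, 16 cells in WT and 22 in KO, held Msx1 at 23.1 and 185 CPM and Msx2 at 47.8 and 143 CPM. Its Msx2 in both libraries and its Msx1 in KO stood above those of the Prrx1/Prrx2 class. Msx1 was at 41.9 CPM over all WT cells (40.8 to 42.9, 6287 UMIs) and at 25.3 CPM over all KO cells (24.5 to 26.1, 3596 UMIs), a log2 ratio of -0.73 (-0.79 to -0.67). This ratio was within 1.5-fold when cells were kept at under 5% mitochondrial UMIs (-0.31) or when cells with a Pdgfrb UMI were left out of both libraries (-0.37). The latter filter is not matched between the libraries, since Pdgfrb is the targeted gene (43.1 and 7.09 CPM) and more cells are taken from WT. In the Prrx1/Prrx2 class it was at 136 CPM in WT and at 103 CPM in KO, a log2 ratio of -0.41 (-0.48 to -0.34), within 1.5-fold. In the remaining class it was at 25.1 CPM (889 UMIs) in WT and 2.11 CPM (66 UMIs) in KO, 11.9-fold lower. Splanchnic-like cells held 39.0 and 5.32 CPM, smooth muscle-like cells 16.7 and 2.23 CPM, and coelomic epithelium-like cells 49.2 and 7.12 CPM. The corresponding log2 ratios were -3.57 (-3.95 to -3.21), -2.87 (-3.35 to -2.43), -2.91 (-3.94 to -2.02) and -2.79. Sclerotome-like cells held 8.53 and 5.92 CPM.

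Msx2 took the same course in those classes. It was at 4.60 and 0.70 CPM in the remaining class, at 7.24 and 0.73 CPM in splanchnic-like cells and at 6.53 and 0.41 CPM in smooth muscle-like cells, where KO held 2 UMIs. The log2 ratios were -2.71 (-3.42 to -2.06), -3.32 (-4.80 to -2.14) and -4.01 (-7.09 to -2.09). In the Prrx1/Prrx2 class, by contrast, Msx2 was at 24.8 CPM (23.0 to 26.7) and 21.6 CPM (19.9 to 23.3). Schwann precursor-like cells, neural crest derivatives, held the highest level of Msx2 after it among the 12 classes, 17.8 CPM in WT (13.7 to 22.8) and 10.6 CPM in KO (7.10 to 15.2). The few cells that passed both the Schwann precursor and the autonomic neuron gates held Msx2 at 31.2 CPM in WT (55 UMIs) and 6.22 CPM in KO (7 UMIs). Over all cells the log2 ratio was -0.52 (-0.64 to -0.40), within 1.5-fold. Msx1 was detected in 17.7% of the WT and 8.26% of the KO mesenchymal cells and, after thinning, in 6.13% and 3.42%. In erythroid cells these shares were 2.40% and 0% before and 0.28% and 0% after thinning.

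**Figure D2:**
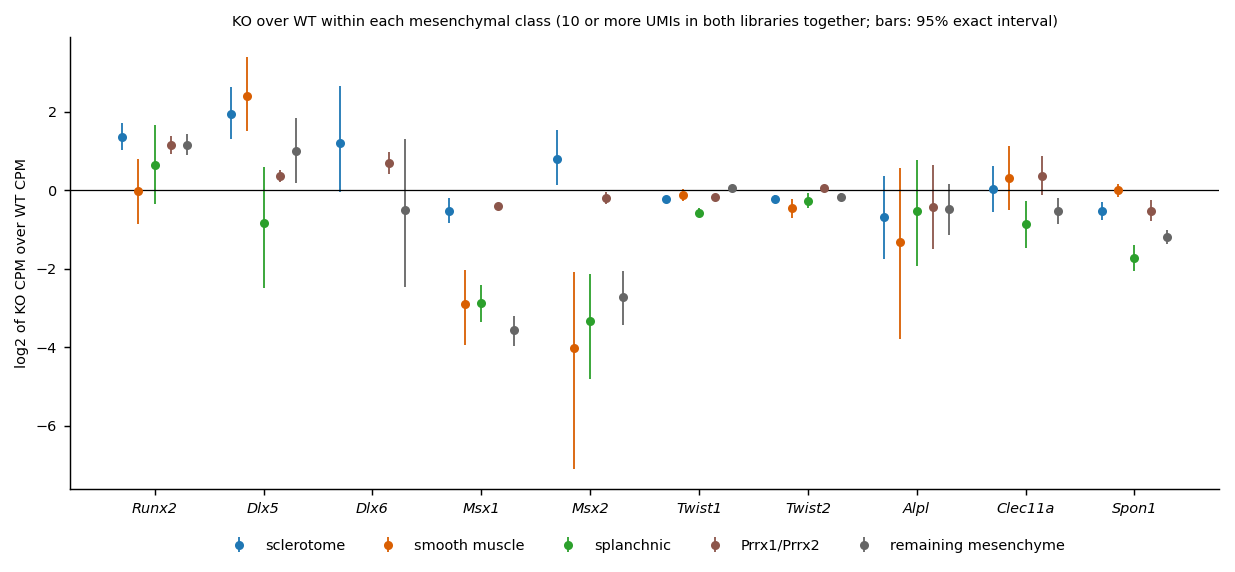
Log2 ratio of KO CPM over WT CPM for each gene within 5 mesenchymal classes, shown where both libraries together held 10 or more UMIs; bars are exact 95% intervals of counting error. Msx1 and Msx2 lie between -2.71 and -4.01 in smooth muscle-like, splanchnic-like and remaining cells and between -0.53 and 0.80 in the sclerotome-like and Prrx1/Prrx2 classes, whereas Twist1 and Twist2 lie between -0.57 and 0.06 in every class.

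The cells behind these values could be narrowed by their other genes. Splanchnic-like and remaining cells with 2 or more UMIs of Postn and Hand1 (696 in WT, 554 in KO), again a split chosen after the values were seen, held Msx1 at 55.4 CPM in WT (52.1 to 58.8, 1073 UMIs) and at 1.89 CPM in KO (1.27 to 2.70, 30 UMIs), 29.3-fold lower. Msx2 was at 9.49 and 0.44 CPM in these cells. Cells of the same classes with no UMI of Postn or Hand1 (1484 and 1353) held Msx1 at 9.56 and 3.63 CPM. Postn itself stood at 116 CPM in WT mesenchyme and at 46.4 CPM in KO, so the marker of the split also differed between the libraries. Within limb-marked Prrx1/Prrx2 cells, Msx1 was at 234 and 200 CPM (log2 ratio -0.23, -0.30 to -0.16) and Msx2 at 42.1 and 41.7 CPM (-0.01, -0.18 to 0.15). These limb-marked cells held 58.0% of the Msx1 UMIs of WT and 76.9% of those of KO. Prrx1/Prrx2 cells without a limb UMI held Msx1 at 6.53 and 5.83 CPM. Cells with gastro-splenic genes also differed in number between the libraries. Among splanchnic-like and remaining cells, 340 in WT and 5 in KO held 2 or more UMIs of Barx1, Tlx1 and Nkx2-5, and the WT cells carried 184 Msx1 UMIs at 22.5 CPM. The part of this difference in tissue in the Msx1 ratio was not tested. Gastro-splenic cells were left out only together with limb-marked and Postn or Hand1 cells, which is given with the counts below and cannot show their part alone.

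**Figure D3:**
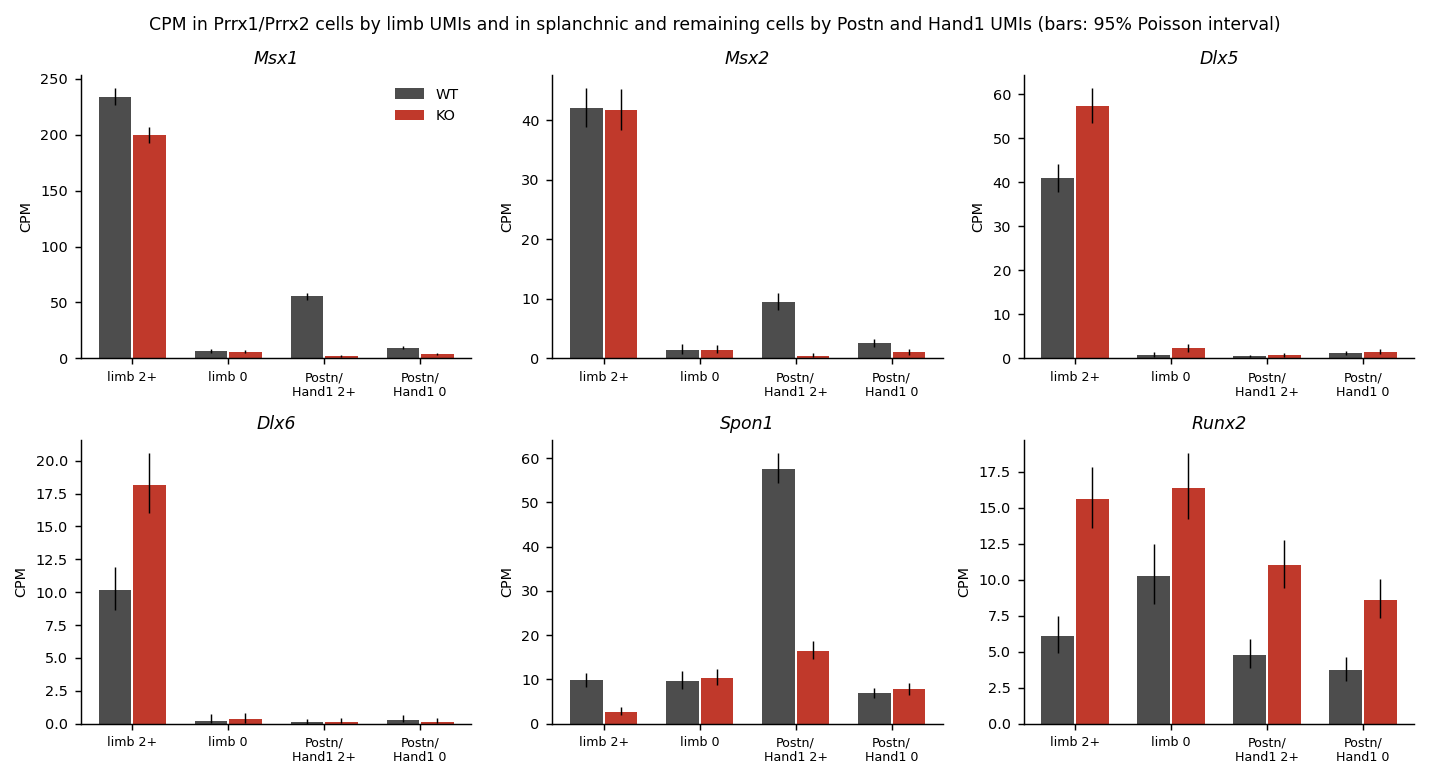
CPM of 6 genes in Prrx1/Prrx2 cells with 2 or more or with 0 limb UMIs (Tbx4, Tbx5, Pitx1, Hoxd13) and in splanchnic-like and remaining cells with 2 or more or with 0 UMIs of Postn and Hand1, in WT and KO; bars start at 0 and carry 95% Poisson intervals. In Postn or Hand1 cells Msx1 stands at 55.4 CPM in the WT and 1.89 CPM in the KO library while limb-marked cells hold 234 and 200 CPM, and Runx2 is higher in KO in all 4 groups.

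Msx1 had an r of 0.78 with Msx2 over the classes, and its most similar other genes were Ncapd2, a condensin subunit (r = 0.75), Cox6c (r = 0.75) and Gm4707 (r = 0.72). Those of Msx2 were Mpped1 and Greb1 (r = 0.82 each) and Nkd2 (r = 0.78), an inhibitor of WNT signaling. At the level of cells, the DLX and MSX genes of the Prrx1/Prrx2 class were found together more often than the product of their shares gives. The product takes the class as uniform, but these genes lay mostly in its limb-marked cells. Such a mix also raises joint detection above the product, and its part is not separated here. With cells thinned to 2000 UMIs, Dlx5 and Msx1 were detected together in 39 WT cells, where the product gives 6.91, and in 35 KO cells, where it gives 7.15. Msx1 and Msx2 met in 43 WT and 34 KO cells, 4.67 and 5.47 times the product, and Dlx5 and Msx2 in 18 and 20 cells, 8.14 and 9.29 times. Of the 48 WT cells with Dlx5, 81.2% held Msx1, and of the 61 KO cells 57.4% did. For Runx2 and Dlx5 the thinned cells were too few to read, with 0 joint cells in either library where the product gives 0.518 and 1.30. With all UMIs these genes met in 32 WT and 46 KO cells, 1.91 and 1.36 times the product, in cells of unequal depth. Runx2 and Twist1 met in 9 WT and 16 KO thinned cells, 0.98 and 0.83 times the product. Cells of 1 library are not replicates, and these ratios are descriptions.

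Twist1 and Twist2 were found across the mesenchyme and stood at nearly equal levels in the libraries. Twist1 was at 271 CPM over all WT cells and 270 CPM over all KO cells, a log2 ratio of 0.00 (-0.02 to 0.02), and Twist2 at 43.8 and 44.0 CPM (0.01, -0.04 to 0.06). These intervals are narrow since 40675 and 38410 Twist1 UMIs were counted. Twist1 was highest in the Prrx1/Prrx2 class (656 CPM in WT, 587 in KO), followed in WT by the sclerotome-like (307 CPM), remaining (276 CPM) and splanchnic-like (160 CPM) classes, and no neighbours in this order had overlapping intervals. In KO the remaining class (288 CPM) stood above the sclerotome-like class (264 CPM). The splanchnic-like class held 108 CPM in KO, a log2 ratio of -0.57 (-0.68 to -0.45), the largest of Twist1 among the 5 mesenchymal classes and just within 1.5-fold. Limb-marked Prrx1/Prrx2 cells held 741 CPM in WT and 620 CPM in KO. Twist2 had a flatter profile. It was at 78.9 CPM in WT and at 67.3 CPM in KO sclerotome-like cells, at 62.0 and 64.1 CPM in the Prrx1/Prrx2 class, and at 61.7 and 44.7 CPM in smooth muscle-like cells (-0.46, -0.70 to -0.23). After thinning, 40.1% of the WT and 39.4% of the KO mesenchymal cells held Twist1, against 3.67% and 1.03% of erythroid cells, and 11.8% and 10.4% held Twist2, against 0.71% and 0.52%. Before thinning, the shares of Twist1 were 79.7% and 80.6%, with 16.7% and 11.3% in erythroid cells, and those of Twist2 were 52.3% and 48.1%, with 6.21% and 3.61%.

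The patterns most like that of Twist2 were those of Pth1r, the receptor of parathyroid hormone in bone and cartilage (r = 0.97), Dnm3os, the host RNA of mesenchymal microRNAs (r = 0.96), and Sema5a (r = 0.96). Twist1 was most like H3f3a (r = 0.95), Dnm1 and Cdo1 (r = 0.94 each), and had an r of 0.90 with Twist2 and of 0.73 with Runx2. TWIST proteins bind DNA as dimers with E proteins, and ID proteins compete for these partners. Of the 12 partners and related genes, 3 were lower in KO mesenchyme by 1.5-fold (Hand1, Hand2 and Tcf21) and 1 was higher (Scx, a factor of tendon precursors), beside 5.49% of all genes lower and 5.47% higher, with a median log2 ratio of 0.09. Hand1, a factor of lateral mesoderm, was at 23.7 CPM in WT and at 10.4 CPM in KO (-1.20, -1.30 to -1.09) and Tcf21, a factor of visceral mesenchyme, at 91.1 and 50.9 CPM (-0.84, -0.89 to -0.79). The most abundant of these genes were within 1.5-fold, the E protein gene Tcf4 at 308 and 390 CPM, Id3 at 702 and 708 CPM and Id2 at 292 and 317 CPM.

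Clec11a was low in mesenchyme, and Alpl was near the limit of detection there. Alpl was at 1.17 CPM in WT mesenchymal cells (0.97 to 1.40, 119 UMIs) and 0.75 CPM in KO (0.59 to 0.93, 77 UMIs), a log2 ratio of -0.65 (-1.08 to -0.22). None of its 5 mesenchymal classes differed beyond the interval of the ratio. In erythroid cells, Alpl was at 0.88 CPM in WT (0.44 to 1.58, 11 UMIs) and at 0 CPM in KO (0 to 0.95, 0 UMIs). The WT interval overlaps that of WT mesenchyme, so the background differed between the libraries at a level near that of Alpl itself. Its highest level lay elsewhere. In germ cells, which were few, all 4 WT cells carried Alpl, with 20 UMIs, and 4 of 6 KO cells did, with 22 UMIs, 103 and 63.0 CPM. The small epithelium class held 21.6 CPM in WT (14 UMIs, 16 cells) and 5.20 CPM in KO (2 UMIs, 22 cells). Coelomic epithelium-like cells held 3.62 CPM in WT and 6.02 CPM in KO, above the other classes of 50 or more cells in both libraries. The genes most like Alpl were Rpp25 (r = 0.91), Tulp2 (r = 0.88) and the keratin gene Krt19 (r = 0.86).

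Clec11a was at 4.21 CPM in WT mesenchyme (3.82 to 4.63) and at 3.22 CPM in KO (2.89 to 3.59), a log2 ratio of -0.39 (-0.60 to -0.18). Its WT levels were 7.96 CPM in coelomic epithelium-like, 7.24 CPM in splanchnic-like and 5.86 CPM in remaining cells, which did not differ beyond their intervals. In KO these classes held 3.83, 3.99 and 4.06 CPM. Cells with 2 or more Postn and Hand1 UMIs held 10.1 CPM in WT and 4.35 CPM in KO (-1.22, -1.64 to -0.82), and cells with none held 3.37 and 3.95 CPM (0.23, -0.25 to 0.71). Clec11a was most like Dnah7b (r = 0.91), Igdcc4 and Flrt3 (r = 0.90 each).

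Spon1, like Alpl, had its highest level outside the mesenchyme in both libraries. Schwann precursor-like cells held 179 CPM in WT (165 to 193) and 216 CPM in KO (199 to 235), and smooth muscle-like cells 100 CPM in each library (93.4 to 107 and 91.6 to 109), with a log2 ratio of 0.00 (-0.17 to 0.16). In splanchnic-like cells Spon1 was at 38.2 and 11.6 CPM (-1.72, -2.05 to -1.40) and in remaining cells at 25.3 and 11.1 CPM (-1.19, -1.37 to -1.01). Postn or Hand1 cells of these classes held 57.6 CPM in WT and 16.5 CPM in KO, 3.49-fold lower, whereas cells with no such UMI held 6.87 and 7.74 CPM. Spon1 thus shared with Msx1, Msx2 and Clec11a the lower KO level in these cells. In limb-marked cells it was at 9.81 and 2.67 CPM. Of the mesenchymal cells, 18.7% in WT and 11.7% in KO held a Spon1 UMI, and 4.12% and 2.16% did after thinning. In erythroid cells these shares were 0.99% and 1.03% before and 0.42% and 0% after thinning. Its most similar genes were Nkain4 (r = 0.95), Sema3b (r = 0.93), a semaphorin, and Fxyd1 (r = 0.91), a regulator of the sodium pump.

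Counted together, 4 of the 10 genes differed by 1.5-fold or more between all KO and all WT cells, Runx2, Dlx5 and Dlx6 higher and Msx1 lower. Of 16113 genes with 50 or more UMIs, 6.78% were higher and 6.11% lower by that much. The median log2 ratio was -0.16 over the 10 genes and 0.06 over all genes. Within the mesenchymal classes, 3 genes were higher (Runx2, Dlx5, Dlx6) and 3 lower (Msx1, Alpl, Spon1), where 5.47% of 14836 genes were higher and 5.49% lower. The medians there were -0.23 over the 10 genes and 0.02 over all genes. With so few genes the shares are descriptions, and the study had already listed Spon1 as lower in KO on these same samples. Mesenchymal cells with 2 or more limb, Postn and Hand1, or gastro-splenic UMIs were next left out of both libraries. Of the 10 genes, 1 was then lower (Alpl) and 3 were higher (Runx2, Dlx5, Dlx6). The ratio of Msx1 was -0.03 and that of Spon1 was 0.03. The Msx1 value can hold opposite differences. Without this filter, Msx1 was lower in KO in splanchnic-like and remaining cells with no Postn or Hand1 UMI (213 and 68 UMIs, -1.40). It was higher in Prrx1/Prrx2 cells with 1 limb UMI (65 and 153 UMIs, 1.14), as were Runx2 (1.84), Dlx5 (2.46) and Dlx6 (2.49). How far these groups offset each other after the filter was not tested. The study removed KO cells with detected PDGFRβ. With KO cells that held a Pdgfrb UMI left out of KO alone, 4 genes were lower in mesenchyme (Msx1, Msx2, Alpl, Spon1) and 1 was higher (Runx2). When cells with a Pdgfrb UMI were left out of the mesenchyme of both libraries, Runx2 and Dlx6 were past 1.5-fold and the ratio of Spon1 was -0.38. Since Pdgfrb is the targeted gene, either filter leaves unlike cells in the libraries.

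**Figure D4:**
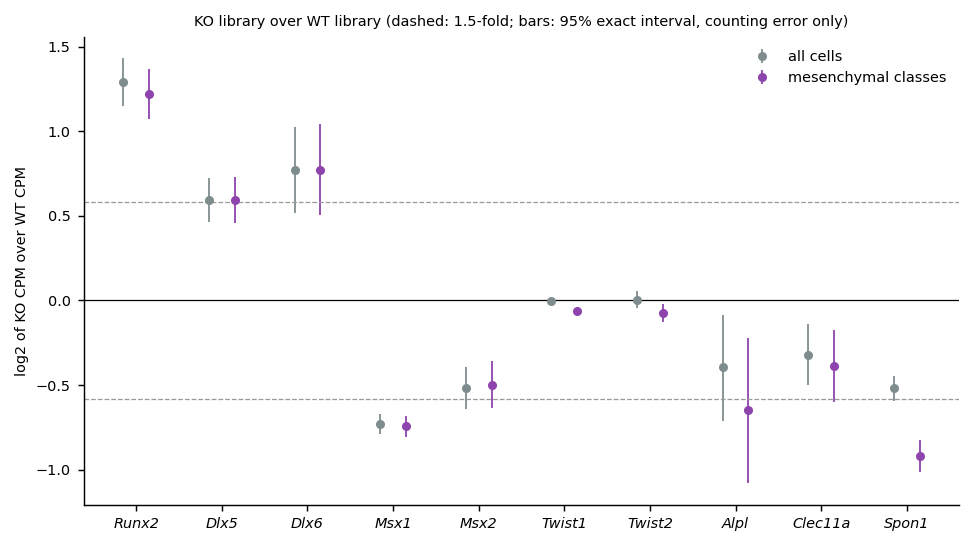
Log2 ratio of KO CPM over WT CPM for each gene over all cells and over the mesenchymal classes; bars are exact 95% intervals of counting error and dashed lines mark 1.5-fold. Runx2 stands at 1.29 and 1.22, Dlx5 and Dlx6 lie between 0.59 and 0.77, Twist1 and Twist2 lie at or near 0, and Msx1 stands at -0.73 and -0.74.

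Other genes of bone were read for comparison. Of 19 osteoblast and mineralisation genes, 13 had 50 or more UMIs in mesenchyme, 2 were lower in KO by 1.5-fold (Ibsp, Col1a1) and 1 was higher (Phex), with a median log2 ratio of -0.03. Over all genes compared in mesenchyme, 5.49% were lower and 5.47% higher, with a median of 0.02. The collagen genes Col1a1 (652 and 331 CPM, -0.98) and Col1a2 (792 and 541 CPM) and the matrix gene Sparc (772 and 623 CPM) were the most abundant. Ibsp, a bone sialoprotein, was at 0.87 CPM in WT and at 0.22 CPM in KO (89 and 23 UMIs) and Phex, a regulator of phosphate, at 0.28 and 0.77 CPM (28 and 80 UMIs). A further list, 19 osteogenic genes that the study chose on these same samples and therefore no independent evidence of direction, had 4 members lower, 0 higher and a median of -0.22, beside the same shares over all genes. Its most abundant genes were Ptn (1113 and 1161 CPM), Col3a1 (787 and 518 CPM) and Igfbp4 (417 and 376 CPM), and the largest ratios were those of Gal (-1.54, -1.80 to -1.29) and Postn (-1.32, -1.37 to -1.27). The study's own list also held Spon1 and Clec11a, so their lower KO levels are no independent evidence of direction either.

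The study divides stroma by PDGFRβ and by NG2, the pericyte proteoglycan encoded by Cspg4. Among WT mesenchymal cells, 413 held UMIs of both genes (double positive, DP). Another 2114 held Pdgfrb without Cspg4 (PDGFRβ-S), 247 held Cspg4 without Pdgfrb (NG2-S), and the other 2593 were double negative (DN). These gates also sort cells by depth, with medians of 24816, 16849, 14141 and 11307 UMIs, and by class, since 29.3% of DP cells and 3.86% of DN cells were smooth muscle-like and 62.3% of NG2-S cells were sclerotome-like. Spon1 was highest in DP cells, at 53.7 CPM (49.9 to 57.6), against 27.9 CPM in PDGFRβ-S, 25.9 CPM in NG2-S and 14.01 CPM in DN cells. The order of DP above DN also held inside the sclerotome-like (31.5 and 13.98 CPM), splanchnic-like (99.6 and 20.3 CPM), smooth muscle-like (109 and 48.3 CPM), Prrx1/Prrx2 (14.6 and 3.73 CPM) and remaining (27.3 and 15.5 CPM) classes.

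Over all WT mesenchyme, Msx1 was highest in PDGFRβ-S cells, at 72.2 CPM (69.9 to 74.7), against 36.9 CPM in DP, 37.6 CPM in DN and 14.9 CPM in NG2-S cells. This order was not that of every class. In the Prrx1/Prrx2 class, 33.3% of PDGFRβ-S and 18.4% of DP cells, PDGFRβ-S cells held 157 CPM, DN cells 112 CPM and DP cells 81.1 CPM. DP cells were above PDGFRβ-S cells in the sclerotome-like (32.0 and 11.1 CPM) and splanchnic-like (78.0 and 46.1 CPM) classes and close to them in the remaining class (28.3 and 27.2 CPM). In smooth muscle-like cells DP cells were far below, at 1.70 CPM (6 UMIs), against 30.8 CPM in PDGFRβ-S (104 UMIs) and 26.5 CPM in DN cells (23 UMIs). Msx2 (13.4 CPM) and Dlx6 (2.73 CPM) also had their highest pooled levels in PDGFRβ-S cells.

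Dlx5 was at 9.62 CPM in PDGFRβ-S, 6.77 CPM in DN and 1.54 CPM in DP cells over all WT mesenchyme. Within the Prrx1/Prrx2 class, PDGFRβ-S and DN cells had overlapping intervals of Dlx5, at 26.0 CPM (23.6 to 28.6) and 26.2 CPM (22.7 to 30.1), and DP cells held 2.77 CPM (1.11 to 5.71, 7 UMIs). For Runx2, the pooled levels of 5.67 CPM in DP, 5.61 CPM in PDGFRβ-S and 4.85 CPM in DN cells had overlapping intervals, and NG2-S cells held 2.33 CPM (10 UMIs). In the Prrx1/Prrx2 class, however, DP cells held 13.9 CPM of Runx2 (9.65 to 19.3, 35 UMIs in 76 cells), against 7.12 CPM (5.91 to 8.51) in PDGFRβ-S and 6.94 CPM (5.21 to 9.06) in DN cells, with no overlap of the DP interval. Twist1 was at 407 CPM in PDGFRβ-S, 349 CPM in DN and 235 CPM in DP cells, and at 681, 688 and 427 CPM within the Prrx1/Prrx2 class. Of the 9 genes with 50 or more UMIs in DP and DN cells together, 2 were higher in DP by 1.5-fold (Spon1 and Alpl, the latter with an interval of the log2 ratio from -0.11 to 1.64) and 1 was lower (Dlx5), where 13.1% of 12659 genes were higher and 3.19% lower.

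**Figure D5:**
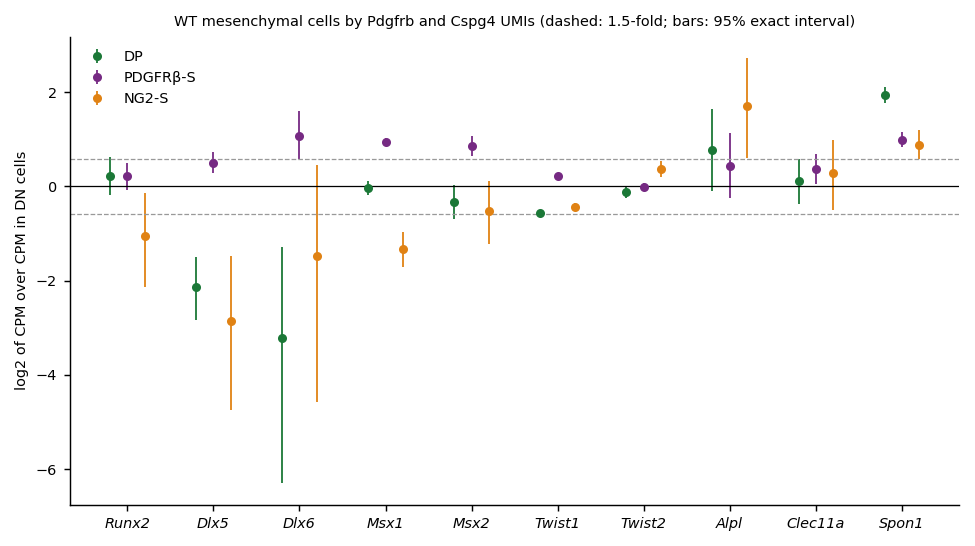
Log2 ratio of CPM in DP, PDGFRβ-S and NG2-S cells over DN cells for each gene in WT mesenchyme; bars are exact 95% intervals of counting error and dashed lines mark 1.5-fold. Spon1 stands at 1.94 in DP cells, Dlx5 at -2.14, and Msx1 at 0.94 in PDGFRβ-S cells.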

How the data were processed

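Cells of 1 WT and 1 KO AGM library (10x 3′ v3) were measured. The authors deposited raw UMI counts of every gene and barcode, made with Cell Ranger 3.1.0 on mm10 (GRCm38), with no cells called. Barcodes with 2000 or more UMIs and under 10% mitochondrial UMIs were kept. A gate asked for at least 2 markers, 3 marker UMIs and a class rate of 2 to 15 marker UMIs per 10000, set on the marker counts. Cells passing gates of different lineages were set apart, and no doublet caller was run. UMIs were summed per class and scaled to CPM, with exact Poisson intervals for levels, exact binomial intervals for shares and exact conditional intervals for ratios (95%). Their code was checked on counts simulated from the same Poisson and binomial models, which cannot show how they hold for UMIs that cluster in cells. Cells were thinned to 2000 UMIs for shares. The text names the 10 genes, the 3 genes most correlated with each, and in each list the 3 most abundant genes and the 2 with the largest ratios. Members and lists were chosen with earlier results of these data known, and splits by limb (also Tbx5 against Tbx4 and Pitx1), Postn and Hand1, gastro-splenic and platelet genes after the values were seen. Python 3.11.15, numpy 2.4.6, scipy 1.17.1, pandas 2.3.3, R 4.3.3 and edgeR 4.0.16 (TMM factors) were used. RefSeq windows were found for 7 genes, not for Dlx5, Dlx6 and Spon1.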

Additional observations from a re-analysis of the deposited data

Results flagged for a closer look

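Among classes of 50 or more cells in each library, Msx2 was past 1.5-fold in opposite directions, with intervals that exclude 0 and 50 or more UMIs in each. Its log2 ratio of KO over WT was 0.80 in sclerotome-like cells (25 and 70 UMIs), -0.75 in Schwann precursor-like cells, -2.60 in coelomic epithelium-like cells, -4.01 in smooth muscle-like cells, -3.32 in splanchnic-like cells and -2.71 in remaining cells. With 1 library per genotype, the difference between classes was not tested.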

How the results depend on the processing

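Of 363 ratios of single genes under up to 17 alternatives between genotypes and 5 between WT gates, 270 stayed within the interval of the reported value, 92 lay outside it and 1 changed the side of a gene past 1.5-fold, Spon1 in mesenchyme at 0.0327 without cells with 2 or more limb, Postn and Hand1, or gastro-splenic UMIs (chosen after the data were seen), where the median of the 10 genes was 0.00346 and the cause was not tested. The alternatives with a fold of 2 and with no filter on low counts leave every ratio as it is. Their ratios are therefore among the 270 by construction. Runx2 was past 1.5-fold under each alternative, between 1.12 and 1.70 over all cells and between 0.89 and 1.36 in mesenchyme. With a fold of 2, 1 gene, Runx2, passed over all cells and 1 in mesenchyme. Without cells with a Pdgfrb UMI in both libraries, a filter that takes unlike cells from WT and KO, 2 genes passed in mesenchyme, and the median over all cells was 0.0760. With the WT gates at 2 UMIs, 5 genes passed between DP and DN. TMM moved all ratios by -0.06 over all cells, -0.02 in mesenchyme and -0.12 between DP and DN. No paired analysis was possible because each genotype has 1 library. The intervals cover counting error only and leave out the spread between cells. Alpl, Dlx6 and Clec11a rest on few UMIs, and the spread between embryos was not measured.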
